A study of Mus musculus with 39 samples.

Results

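The mast cell genes followed here were Cpa3, Cma1, Mcpt4, Tpsb2, Kit, Fcer1a, Ms4a2 and Hdc, 8 of the 29411 genes named on the array. They were found by their gene symbol on the array, and each was read from its brightest probe. All 8 passed the filter on dim probes, which kept 24723 genes. The samples were 39 arrays from C57BL/6J mice, weaned at 3 to 4 weeks of age, and the labels call the material brown infiltrating macrophages (SVCs). SVCs are the stromal vascular cells of fat, the cells other than adipocytes. LFC mice received the low fat diet (10 arrays) and HFC mice the diet rich in fat and sucrose (11 arrays). HF5, HF20 and HF75 mice received the HFC diet with 5, 20 or 75 µg of the botanical formulation KAL-1 (6 arrays each). LFC and HFC arrays run from Day 1 to Week 18, with no LFC array at Week 6, and KAL arrays from Week 3 to Week 18. Each diet and time label has 1 array, so the spread over time labels served as the error, and p-values measure that spread. The labels do not say whether an array holds 1 animal or several.

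Mast cells are tissue-resident immune cells filled with granules of proteases, histamine and proteoglycan. An antigen that crosslinks IgE on their high-affinity receptor releases the granules, and the cells depend on the receptor Kit and its ligand, stem cell factor, for survival. Mast cells of connective tissue, fat included, carry chymases, tryptases and carboxypeptidase A3. In RNA from a mixture of cells, fewer mast cells and less RNA per mast cell cannot be told apart.

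Of the 8 genes, 4 encode granule proteases. Cpa3, carboxypeptidase A3, lies on chromosome 3 from 20215616 to 20242209 of GRCm38.p6. Cma1, a chymase, lies on chromosome 14 from 55941451 to 55944675, and Mcpt4, the chymase mast cell protease 4, lies 115068 bases away from 56059744 to 56062310. Tpsb2, a tryptase, lies on chromosome 17 from 25366308 to 25368096. Another 3 encode surface proteins. Kit, the stem cell factor receptor, lies on chromosome 5 from 75574987 to 75656722. Fcer1a, the IgE-binding chain of the receptor, lies on chromosome 1 from 173221269 to 173227232, and Ms4a2, its signal-amplifying beta chain, on chromosome 19 from 11615517 to 11623790. Hdc, histidine decarboxylase, the enzyme that makes histamine, lies on chromosome 2 from 126593659 to 126624025.

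The stretches of 250 bases before the transcription start are shown for the 3 proteases of the RefSeq promoter table, which rose and fell together from array to array, and for Fcer1a and Kit, the receptor genes, of which Kit did not follow them. They are read 5′ to 3′ along the gene, from RefSeq promoters of GRCm38.p6. Capitals mark a GATA word, an M-box word or TATAAA.
Cpa3, chr3:20242182-20242431, strand -: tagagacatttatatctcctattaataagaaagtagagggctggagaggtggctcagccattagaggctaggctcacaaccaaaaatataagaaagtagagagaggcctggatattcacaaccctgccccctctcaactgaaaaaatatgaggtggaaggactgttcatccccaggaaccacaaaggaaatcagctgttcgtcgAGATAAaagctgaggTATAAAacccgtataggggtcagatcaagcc
Cma1, chr14:55944676-55944925, strand -: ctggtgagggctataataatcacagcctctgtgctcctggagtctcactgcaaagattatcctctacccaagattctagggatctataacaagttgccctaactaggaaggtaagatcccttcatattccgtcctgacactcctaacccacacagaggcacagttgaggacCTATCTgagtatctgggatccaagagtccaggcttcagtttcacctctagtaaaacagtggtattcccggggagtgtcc
Mcpt4, chr14:56062311-56062560, strand -: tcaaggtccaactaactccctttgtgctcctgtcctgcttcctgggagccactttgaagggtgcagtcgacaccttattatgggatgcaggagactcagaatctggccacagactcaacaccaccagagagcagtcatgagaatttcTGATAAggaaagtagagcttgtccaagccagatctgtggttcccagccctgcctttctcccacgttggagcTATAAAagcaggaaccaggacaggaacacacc
Fcer1a, chr1:173227230-173227479, strand -: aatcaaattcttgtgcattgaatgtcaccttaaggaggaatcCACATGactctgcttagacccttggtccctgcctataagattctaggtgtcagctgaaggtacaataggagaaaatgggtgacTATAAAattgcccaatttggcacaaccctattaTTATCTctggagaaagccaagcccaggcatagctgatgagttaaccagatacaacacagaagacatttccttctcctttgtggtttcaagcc
Kit, chr5:75574737-75574986, strand +: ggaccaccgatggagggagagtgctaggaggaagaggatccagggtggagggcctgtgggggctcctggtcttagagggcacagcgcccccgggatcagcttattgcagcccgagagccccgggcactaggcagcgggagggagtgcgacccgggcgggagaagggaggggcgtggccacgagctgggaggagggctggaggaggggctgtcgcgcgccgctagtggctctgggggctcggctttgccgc

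GATA words are the binding letters of the GATA factors, among them Gata2, which mast cells need, and M-box words those of Mitf, a master regulator shared by mast cells and melanocytes. A GATA word was GATA preceded by A or T and followed by A or G, on either strand. An M-box word was CACATG or CACGTG on either strand. A GATA word stood in the promoter of 6 of the 7 members listed there and in 26.5% of 32851 mouse promoters of the same length. Counted from the start of transcription, the word began at position -46 in Cpa3, -79 in Cma1, -92 in Fcer1a and -103 in Mcpt4. Kit held none of these words. An M-box word was found only in Fcer1a among the 7, against 17.6% of all promoters. TATAAA on the gene's strand was found in Cpa3, Mcpt4 and Fcer1a and in 7.59% of all promoters, and it began at position -31 in Cpa3, -32 in Mcpt4 and -125 in Fcer1a. The starts of Cpa3, Fcer1a and Ms4a2 in that table lie slightly inside the gene models given above. That of Hdc lies farther inside, since its promoter stretch reaches only to 126618928 while the gene runs to 126624025. These matches describe letters and were not tested as binding sites.

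Some arrays stood apart before any comparison. The 75th percentile of the signal, to which each array was scaled, ranged from 18.1 to 3974 intensity units. HF20 Week 15 was the brightest and had 71.4% of its spots flagged as outliers, so Cpa3, Tpsb2, Fcer1a and Ms4a2 have no value there. Tpsb2 was also flagged on HF5 Week 12 and HFC Week 12. On LFC Day 10 and HFC Week 12, Ucp1, the uncoupling protein of brown fat, lay at -3.16 and -3.18 (log2 relative to the array's 75th percentile), against a median of 6.23 on the other arrays. The mesothelial genes Wt1 and Upk3b lay between 0.57 and 1.46 on these 2 arrays and at or below -3.15 on the others that measured them. Ucp1 was thus strongly expressed on most arrays although the labels describe cells of the stromal fraction, and Adgre1, the macrophage marker F4/80, was well above background on all 39 arrays. The titles of 9 arrays carry a token, BA or BAT, that the other 30 lack. The arrays that carry it are called titled arrays here. They are HFC Day 1, LFC Day 6, HFC and HF5 Week 9, LFC and HF20 Week 12, HF5 and HF75 Week 15, and LFC Week 18. The HF20 Week 12 array is HF20 by title and source but high fat diet by its feeding label. At Day 14 the columns of the series' fold-change table carry the LFC and HFC names the other way round from the scanner files.

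Signal of the mast cell genes was readily measured for the chymases and Hdc and weak for the IgE receptor. Cma1 and Hdc were well above background on 39 of 39 arrays, Mcpt4 on 38 and Kit on 35. Cpa3 and Fcer1a reached that mark on 26 arrays and Tpsb2 on 25. Ms4a2 was well above background on only 6 arrays, with 1 or 2 in every diet, so its values are mostly near the background. No member spot was saturated. Of the markers of basophils, the blood cells that share the IgE receptor, Prss34 was well above background on 21 arrays, Cd200r3 on 4 and Mcpt8 on 3. Kit is also made by melanocytes, whose markers Dct, Pmel, Mlana and Tyrp1 were well above background on 12, 11, 6 and 1 arrays. Genes with more than 1 probe gave similar patterns, with exceptions on single arrays. The probes of Cma1 correlated at r = 0.88 over 38 arrays and those of Mcpt4 at r = 0.83 over 37, both across arrays of this series. Kit has 3 probes of 60 bases, of which 2 hold the same sequence under different names. This pair differed by a median of 0.06 and by at most 0.87 on the log2 scale (r = 0.98, n = 38), which shows the repeatability of a spot on an array. The third Kit probe followed the brightest at r = 0.87, with a gap of up to 2.77.

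**Figure D1:**
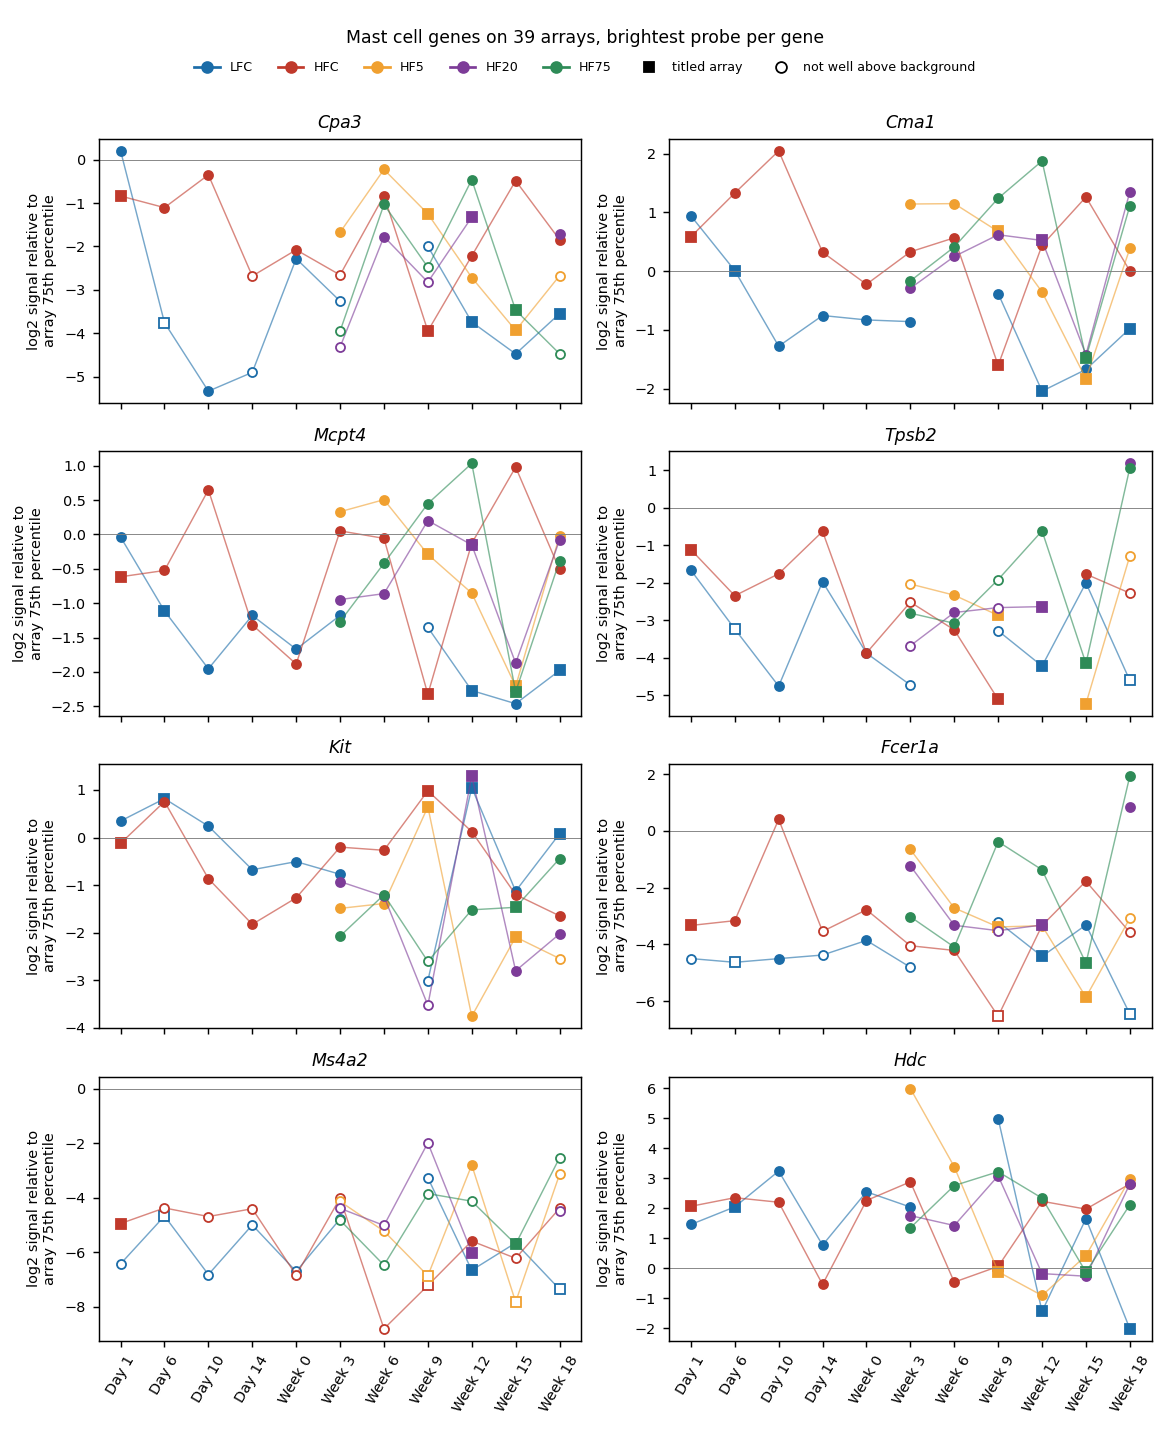
Levels of the 8 genes on every array, as log2 signal of the brightest probe relative to the array's 75th percentile, against the time label. Lines and colours are diets, squares are titled arrays and open symbols were not well above background. Cma1, Mcpt4 and Cpa3 tend to rise and fall together, with exceptions such as HF75 Week 18, where Cpa3 is at -4.47 and Cma1 at 1.11. HFC is above LFC at 8 of 10 labels for Cma1 and Cpa3, while Hdc peaks on HF5 Week 3 at 5.99.

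Levels of the granule proteases lay above LFC in HFC at most time labels, though no probe passed the test across the array. Cma1 ranged from -2.04 to 0.94 in LFC (median -0.85) and from -1.60 to 2.05 in HFC (median 0.44). The groups overlapped at both ends, since the LFC Day 1 array was high and the HFC Week 9 array, a titled one, was low. Set side by side at each label, HFC exceeded LFC by 1.32 at Day 6, 3.33 at Day 10, 1.08 at Day 14, 0.61 at Week 0, 1.19 at Week 3, 2.48 at Week 12, 2.94 at Week 15 and 0.98 at Week 18, and fell below it by -0.36 at Day 1 and -1.22 at Week 9. Of the 29418 probes with values at all 10 labels, 7.71% were higher in HFC at 8 or more. In the additive limma fit of diet and time label, Cma1 was higher in HFC by 1.24 ± 0.42 (log2, SE), an unadjusted p of 0.00612 and an adjusted p of 0.9995.

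Cpa3 ranged from -5.33 to 0.20 in LFC (median -3.64) and from -3.95 to -0.35 in HFC (median -1.84). It too was higher in HFC at 8 of 10 labels, with the largest difference, 4.98, at Day 10. The limma estimate was 1.46 ± 0.54 (adjusted p 0.9995). Mcpt4 ranged from -2.46 to -0.04 in LFC (median -1.51) and from -2.33 to 0.98 in HFC (median -0.51). It was higher in HFC at 6 of 10 labels, which 43.3% of probes matched or passed. The estimate was 0.98 ± 0.43, and its dimmer probe gave 1.14 ± 0.43. Tpsb2 ranged from -4.76 to -1.66 in LFC (median -3.58) and from -5.11 to -0.63 in HFC (median -2.31). It was higher in HFC at 8 of the 9 labels that could be compared, by 1.03 ± 0.60, but normexp background correction turned its direction (-0.14). All 4 proteases had positive estimates, each with diets that overlapped.

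The receptor genes did not move as a group. Fcer1a ranged from -6.46 to -3.21 in LFC (median -4.46) and from -6.54 to 0.41 in HFC (median -3.34). HFC was above LFC at 9 of 10 labels, the exception being Week 9, where the HFC array was -3.33 lower. The estimate was 1.27 ± 0.75, and -0.20 with normexp background correction. Fcer1a was well above background on 4 of 10 LFC and 7 of 11 HFC arrays. Kit was lower in HFC at 8 of 10 labels, by -0.06 at Day 6 to -1.72 at Week 18, with a median of -1.01 at the labels that share a scan date. At Week 9 HFC was 3.99 higher, against an LFC spot that was not well above background. The estimate was -0.17 ± 0.54. Its level ranged from -3.01 to 1.05 in LFC and from -1.82 to 0.98 in HFC. Ms4a2, near the background, gave 0.30 ± 0.62.

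Hdc was spread as widely within the diets as between them. Its levels ran from -2.02 to 4.99 in LFC (median 1.85) and from -0.54 to 2.88 in HFC (median 2.20). HFC was the higher at 6 of 10 labels. The difference was 4.83 at Week 18, where the LFC array is titled, and -4.93 at Week 9, where the HFC array is titled. The estimate of 0.11 ± 0.74 changed sign under 4 settings other than leaving out a label.

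Over the 8 members the median difference between HFC and LFC was 1.00, beside 0.05 over all 34043 probes tested. With normexp background correction the members' median was -0.04 and that of all probes -0.26, with Cma1 at 0.50, Mcpt4 at 0.19 and Cpa3 at 0.05. With limma 0 of 34043 probes (0.0%) and 0 of 8 members passed an adjusted p of 0.05. At an unadjusted p under 0.05, 959 probes passed, 668 of them (1.96%) higher in HFC, and Cma1, Cpa3 and Mcpt4 were among these. The direction of such probes varied with the processing, with 556 higher and 511 lower under quantile normalization and 384 higher and 900 lower under the methods' t-test. In simulated data with the spread of these arrays, 44.8% of 4-fold and 2.99% of 2-fold changes were recovered, so changes of the size seen here were mostly not detectable. The differences were largest for Cma1, Cpa3, Tpsb2 and Fcer1a at Day 10, where the LFC array is the one with little Ucp1. Without the 2 arrays of low Ucp1 the estimates were 0.98 for Cma1, 1.16 for Cpa3, 0.76 for Mcpt4 and 0.81 for Tpsb2 and for Fcer1a. Without the titled arrays they were 1.58, 1.94, 1.34, 1.01 and 1.44. At the 6 labels where both arrays share a scan date the median difference was 1.78 for Cma1, 1.96 for Cpa3 and 1.81 for Mcpt4. At the other 4 labels it was 0.42, -0.22 and 0.01. Of those 4 labels, Day 1 and Week 9 have a titled HFC array and Day 6 a titled LFC array. Of the 6, Week 12 and Week 18 have a titled LFC array. The part of the title in this split was not tested.

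**Figure D2:**
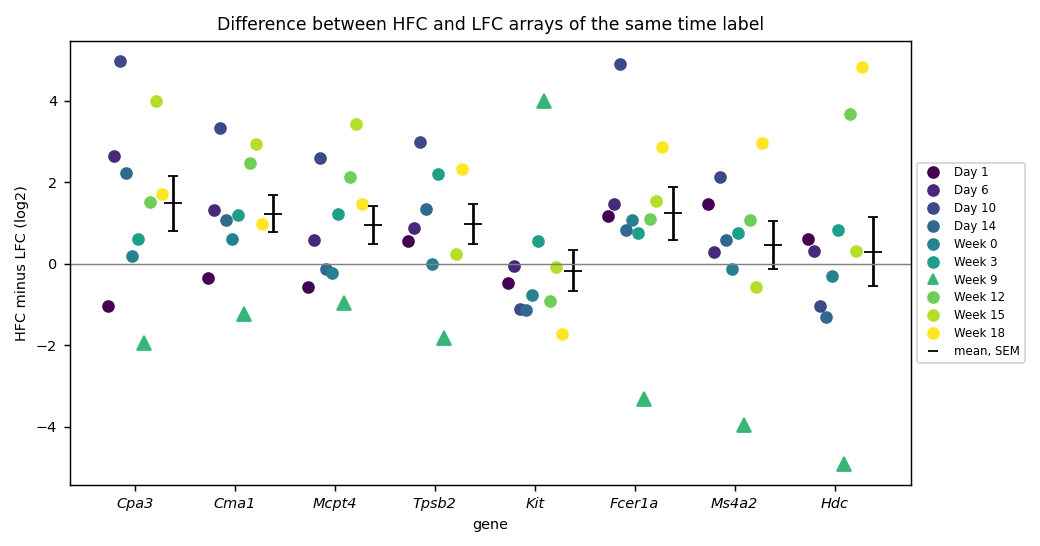
HFC minus LFC at each time label for each gene, on the log2 scale. Points are time labels coloured from early to late, triangles mark Week 9, and the bar at the right of each gene is the mean with its standard error over labels. Cma1 and Cpa3 lie above 0 at 8 of 10 labels and Fcer1a at 9, while the Week 9 point is the lowest for 7 of the 8 genes and the highest for Kit.

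Genes around the mast cell pathway were read from fixed lists in the same contrast. None of their tested members passed the adjusted test between HFC and LFC, where 0.0% of all probes did. Of 7 further proteases 2 could be tested, Tpsg1, a tryptase, and Ctsg, cathepsin G, with differences of 0.78 ± 0.54 and 0.82 ± 0.60. All 5 growth factors and cytokines that could be tested had positive differences, from 0.24 for Kitl, which encodes stem cell factor, to 1.08 for Il4, a dim probe well above background on 7 arrays. Of 5 lipid mediator enzymes, which make leukotrienes and prostaglandins, 4 had positive differences with a median of 0.30. The 6 IgE receptor signalling genes had a median of -0.08, and Srgn, the proteoglycan core that packs the granules, differed by 0.13 ± 0.54. Of the transcription factors, Mitf differed by 1.03 ± 1.06, Gata1 by 0.51 ± 0.51 and Gata2 by -0.55 ± 0.33. Several lists of other cells leaned upward as well, where 54.2% of all probes were above 0. Above 0 were 6 of 6 neutrophil genes (median 0.63), 7 of 7 macrophage genes (median 0.35) and 4 of 4 T cell genes (median 0.47), none passing. Fibroblast genes, which are not immune, had 3 of 4 above 0 (median 0.47), and eosinophil genes 1 of 2 (median -0.13). Adipocyte genes leaned downward, with 0 of 5 general adipocyte genes above 0 (median -0.42) and 1 of 5 brown adipocyte genes (median -0.56). Their part in the lean of the proteases was not tested.

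With KAL-1 added to the HFC diet the chymases overlapped with HFC at every dose. Cma1 had a median of 0.53 in HF5, 0.39 in HF20 and 0.76 in HF75, beside 0.44 in HFC, and the ranges of all 4 groups overlapped. The order of the medians, LFC below HF20, HFC, HF5 and HF75, rested on neighbours that did not differ beyond their spread. Mcpt4 had medians of -0.16, -0.51 and -0.40, beside -0.51 in HFC. These LFC and HFC medians also cover the labels before Week 3, which the KAL arrays lack. At the labels shared with HFC, the median difference of Mcpt4 was 0.38 in HF5, -0.41 in HF20 and -0.12 in HF75. That of Cma1 was 0.48, -0.12 and 0.48. In the fits against HFC, which share the HFC arrays, Cma1 differed by 0.05 ± 0.52 in HF5, 0.02 ± 0.52 in HF20 and 0.35 ± 0.52 in HF75. No member passed in any of the 3 doses, where 0.0% of 34043 probes did.

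Other members differed more in size from HFC, also without passing. Fcer1a ranged from -5.86 to -0.65 in HF5 (median -3.21), from -3.52 to 0.84 in HF20 (median -3.32) and from -4.67 to 1.94 in HF75 (median -2.20). Its highest values were on HF75 Week 18 and HF20 Week 18, the arrays on which Tpsb2 also peaked at 1.07 and 1.19. On HF75 Week 18 Cd200r3, a basophil gene well above background on 4 arrays, had its highest value too (0.94). The other basophil genes peaked elsewhere, Prss34 on HFC Day 6 (0.82) and Mcpt8 on HF20 Week 15 (-0.56). The difference of Fcer1a from HFC was 0.48 ± 0.93 in HF5, 1.45 ± 0.99 in HF20 and 1.72 ± 0.93 in HF75. The HF20 fit lacks the flagged Week 15 array. At the 2 labels with values where both arrays share a scan date, the median difference was 0.45 in HF20 and -0.46 in HF75. At the other labels it was 3.02 and 3.27. HF20 Week 12 and HF75 Week 15, among the former, are titled arrays. At Week 9, among the latter, the HFC array is titled and the differences were 3.02 and 6.16. At Week 18, where these arrays are not titled, they were 4.42 and 5.51. The part of the title in this split was not tested. Without Week 18 the HF20 estimate was 0.61. Leaving out a label moved the HF75 estimate between 0.85 (without Week 18) and 2.66 (without Week 15). Ms4a2, the beta chain, near background on most arrays, gave 0.80 ± 0.77, 1.23 ± 0.82 and 1.22 ± 0.77 over the doses. Tpsb2 gave 0.18 ± 0.79, 0.68 ± 0.81 and 0.97 ± 0.75, and Cpa3 -0.23 ± 0.67, -0.66 ± 0.72 and -0.79 ± 0.67. Across the dose rank the slope of Fcer1a was 0.67 ± 0.30 per step (limma, unadjusted p 0.0335, adjusted p 0.65), and here too 0.0% of probes passed. Kit had estimates below HFC at every dose. It ranged from -3.75 to 0.65 in HF5, from -3.52 to 1.29 in HF20 and from -2.60 to -0.44 in HF75. In HF5 it was lower than HFC at 6 of 6 labels, by -1.18 ± 0.67, and its other probes gave -1.33 ± 0.71 and -1.32 ± 0.61. Without Week 12 the HF5 estimate was -0.59, and without Week 9 that in HF20 was -0.46. The estimates in HF20 and HF75 were -0.94 ± 0.67 and -0.96 ± 0.67, and none passed (limma, adjusted p of at least 0.998). Markers of other cells moved beside these members without passing. All 6 neutrophil genes had positive differences at every dose, with medians of 1.00, 1.23 and 1.53. All 4 endothelial genes had negative ones, with medians of -0.85, -0.91 and -0.46. Brown adipocyte genes had medians of 1.21, 0.90 and 1.37, and erythroid genes of 0.82, 0.78 and 1.5. Of all probes, 47.2%, 48.7% and 53.9% were above 0. Their part in the members' differences was not tested.

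Over time, all 8 members had negative slopes in the LFC and HFC arrays, where only 36.4% of all probes had positive ones. With limma an unadjusted p under 0.05 was common, at 4057 of 34043 probes, 2674 of them with a negative slope. The slope of Cma1 was -0.21 ± 0.08 per doubling of days (limma, unadjusted p 0.02, adjusted p 0.337) and that of Cpa3 -0.23 ± 0.13, and the slope of Cpa3 went to 0.01 without Day 1. The members' median slope was -0.13, beside -0.05 over all probes, of which 0.0% passed. Day 14 and Week 0 are the same day by the study's count of weeks. On these arrays the brightest chymase probes differed by less than the median probe. Cma1 read -0.76 and -0.83 in LFC, and 0.32 and -0.22 in HFC. Mcpt4 differed by 0.49 in LFC and 0.57 in HFC. Their dimmer probes were farther apart in HFC, at -1.50 and -2.91 for Cma1 and -1.05 and -2.87 for Mcpt4. Cpa3 had the largest gap in LFC, at -4.90 and -2.28. Tpsb2 stood at -1.97 and -3.88 in LFC and -0.63 and -3.87 in HFC, and Hdc was lower on Day 14 by -1.78 in LFC and -2.80 in HFC. The median absolute difference over all probes was 0.85 in LFC and 1.11 in HFC.

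The titled arrays differed from the others in 7 of the 8 members. With limma, diet and time label in the fit, 52.4% of 34043 probes passed, 31.8% lower and 20.5% higher on titled arrays, so that a call here is common on the array. Hdc was lower by -2.25 ± 0.60 (adjusted p 0.00356), Fcer1a by -2.08 ± 0.65, Tpsb2 by -2.04 ± 0.49, Ms4a2 by -2.02 ± 0.49, Mcpt4 by -1.07 ± 0.37 and Cma1 by -1.04 ± 0.37 (adjusted p of 0.0209 or less for each). Cpa3 was -0.87 ± 0.52 and did not pass (adjusted p 0.164). Kit went the other way, higher by 1.73 ± 0.43 (adjusted p 0.00205), and its other probes gave 1.80 and 1.18. Ms4a2 was well above background on 4 of 9 titled arrays and 2 of the 30 others, so its difference mostly compares spots near background. Tpsb2 reached that mark on 7 of 9 titled and 18 of 30 other arrays, and Cpa3 on 8 of 9 and 18 of 30.

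In levels, Hdc had a median of -0.12 on the titled and 2.24 on the other arrays, with ranges of -2.02 to 2.06 and -0.91 to 5.99. Kit had a median of 0.65 against -1.22, with ranges of -2.09 to 1.29 and -3.75 to 0.76. Both genes overlapped between the kinds of array, and the titled HF5 Week 15 and HF75 Week 15 arrays were low in Kit. Quantile normalization left 3 of 8 members past the threshold, Hdc, Kit and Tpsb2, and it shifted the median over all probes from -0.30 to 0.18. The share of called probes that were higher on titled arrays was 39.2% with the main scaling and 66.6% with quantile normalization. The signs of all 8 members held under both. Without Week 9 only Fcer1a and Tpsb2 passed, and without Week 15 only Hdc, Kit and Ms4a2.

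Pathway genes differed on the titled arrays as well, by the same fit. IgE receptor signalling had 5 of 6 genes lower, among them Lat, the adaptor of the receptor (-2.81), and Syk, its kinase (-1.76). Lipid mediator enzymes had 4 of 5 lower, led by Alox5ap (-2.40), while Ltc4s, leukotriene C4 synthase, was higher (1.59). Of the histamine group Hrh1, Hrh2 and Aoc1 were lower and Hnmt, which inactivates histamine, higher (2.41). Il33, an alarmin for mast cells, was lower (-2.16) and Kitl gave -0.21 ± 0.37. Neutrophil genes were lower in 6 of 6 (median -4.67), B cell genes in 3 of 3 (median -2.46) and macrophage genes in 4 of 7 (median -1.06), and of 5 general adipocyte genes 3 were higher and Fabp4 lower (-2.36). Their part in the members' differences was not tested.

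**Figure D3:**
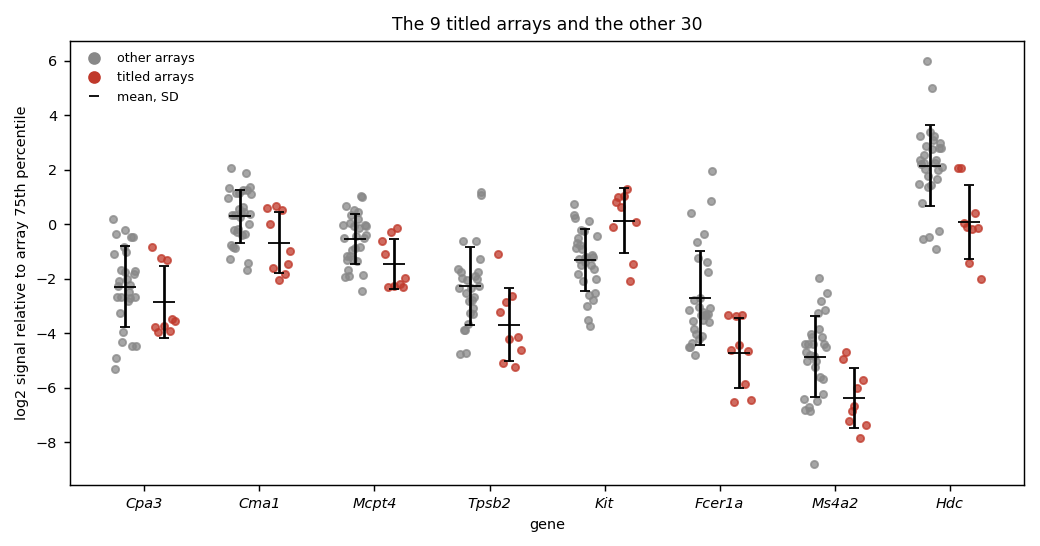
Level of each gene, as log2 signal relative to the array's 75th percentile, on the 30 other arrays (grey) and the 9 titled arrays (red), with mean and SD. Titled arrays sit lower for 7 genes and higher for Kit, and the kinds of array overlap for every gene.

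From array to array the proteases moved together. Over 28 pairs of members, 17 correlations passed an adjusted p of 0.05 by permutation, 16 of them positive, and 7 passed without the titled arrays. The negative one was that of Kit with Ms4a2, with r = -0.55 and rho = -0.50 (adjusted permutation p 0.00151, r = -0.42 without the 2 farthest arrays). Cma1 and Mcpt4 were the closest pair, with r = 0.92 and rho = 0.90 over 39 arrays (adjusted permutation p 5.6e-05 for each, from an unadjusted 1e-05, the smallest that 100000 resamples can give), and r = 0.91 without the 2 arrays farthest from the median of Cma1. Cpa3 followed Cma1 at r = 0.72 and rho = 0.73 (0.71 without the 2 farthest arrays) and Mcpt4 at r = 0.69 and rho = 0.68 (0.68). Tpsb2 followed Cma1 at r = 0.72 and rho = 0.74 (0.68) and Mcpt4 at r = 0.61 and rho = 0.64 (0.63), each with an adjusted permutation p of 0.000315 or less. Cpa3 and Tpsb2 were less alike, with r = 0.34 (adjusted permutation p 0.0664). Since titled arrays form a class of their own, r was also taken over the other arrays, where it was 0.89 for Cma1 and Mcpt4, 0.70 for Cpa3 and Cma1, and 0.60 for Cma1 and Tpsb2. After diet and time label were fitted out, Cma1 and Mcpt4 kept r = 0.94.

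Fcer1a tracked Tpsb2 at r = 0.75 and rho = 0.65 (r = 0.61 without the 2 farthest arrays) and Cma1 at r = 0.69 and rho = 0.67, each with an adjusted permutation p of 9.333e-05 or less. The r of Kit with the 4 proteases lay between -0.24 and -0.01 (adjusted permutation p of at least 0.183). Hdc followed the chymases loosely, at r = 0.44 for both (adjusted permutation p 0.00954), and over the other arrays at 0.26 and 0.27. Hdc also tracked the mean of 6 neutrophil genes at r = 0.82 and rho = 0.78 over 39 arrays (adjusted permutation p 0.000187 over 112 relations between members and marker lists, r = 0.81 without the 2 farthest arrays, r = 0.73 without the titled arrays) and that of 7 macrophage genes at r = 0.66 and rho = 0.66. Lists of cells outside the myeloid line were close to Hdc as well, with r = 0.66 for 3 erythroid, 0.60 for 4 fibroblast and 0.57 for 3 B cell genes. Histamine is also made by other myeloid cells than mast cells, and the source of Hdc here was not tested. With the neutrophil list the r of the other members was 0.68 for Ms4a2, 0.61 for Fcer1a, 0.56 for Tpsb2, 0.53 for Cma1, 0.50 for Mcpt4, 0.25 for Cpa3 and -0.54 for Kit. With the 4 T cell genes it was 0.76 for Ms4a2, 0.64 for Cma1 and 0.62 for Tpsb2.

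Brightness of the array moved with several members. Over the arrays, the log2 of the 75th percentile gave r = -0.78 and rho = -0.82 with Ms4a2 (adjusted permutation p 4e-05, r = -0.77 without the 2 farthest arrays), -0.62 with Hdc, -0.48 with Tpsb2 and with Fcer1a, -0.46 with Cma1, -0.42 with Mcpt4, 0.44 with Kit and -0.001 with Cpa3. Brightness and title overlap. Most titled arrays were brighter than most of the others, and those of Week 9, Week 12 and Week 15 lay between 735 and 1289 intensity units. Without the titled arrays r was -0.77 with Ms4a2, -0.46 with Hdc, -0.33 with Tpsb2 and Cma1, -0.31 with Fcer1a, -0.29 with Mcpt4, 0.29 with Kit and 0.15 with Cpa3. The parts of title and brightness were not told apart. Ms4a2, the most strongly related to brightness, is also the member nearest to background. The part of brightness in the likeness between members was not tested.

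**Figure D4:**
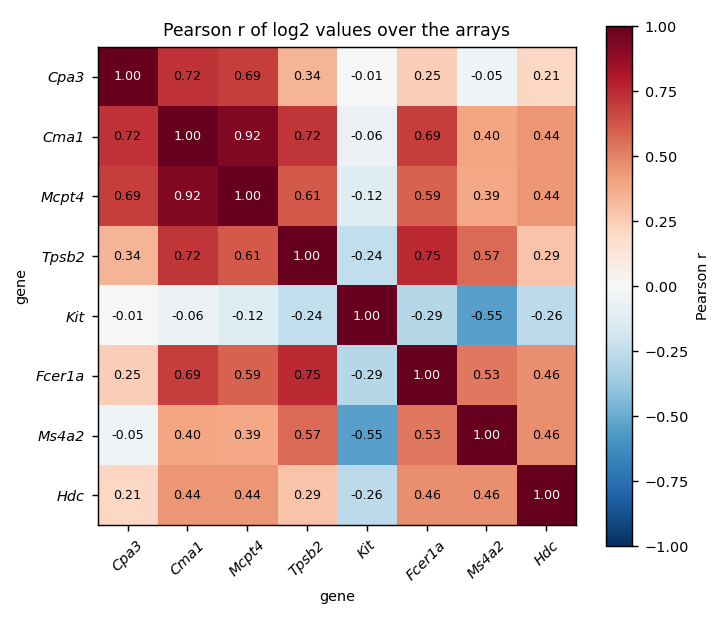
Pearson r between each pair of the 8 genes over the 36 to 39 arrays that measured both, as colour and number. The block of Cpa3, Cma1 and Mcpt4 reaches 0.69 to 0.92, Tpsb2 and Fcer1a join Cma1 at 0.72 and 0.69, and Kit is at or below 0 with every other gene.

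The genes most like the members as a group were mostly predicted loci. Among 17205 genes well above background on at least 20 arrays, the highest correlations with the mean standardised level of the 8 members were those of Gm4015 (r = 0.86, n = 38), Gm6458 (0.79), Gm7283 (0.78), LOC676307 (0.78), LOC100045691 (0.78), Sufu (0.77), Gm3227 (0.77), Gm2438 (0.76), Nlrc3 (0.75) and Gm15930 (0.75). The genes were picked for these values, so the values are a description. The same genes correlated with the log2 of the 75th percentile at r from -0.82 to -0.44, and the part of brightness in their likeness was not tested.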

How the data were processed

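Agilent 1-colour arrays of 39 samples were read from the scanner files, whose gProcessedSignal column is a background-subtracted intensity that, per the file headers, the authors extracted with Feature Extraction 10.5.1.1 (9.1 in the submitters' processing notes). The authors also deposited a table of log2 values relative to the LFC array of each time label, used as an alternative. Its gene symbols named the probes, and no column of another series was used.

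Intensities were taken as log2 minus each array's 75th percentile, outlier-flagged spots were left out and spots of a probe averaged. A probe was kept when well above background on at least 6 arrays (34043 of 40628 probes). The model, fitted by limma 3.58.1 under R 4.3.3, held diet and time label as additive terms (39 arrays, Benjamini-Hochberg over all probes, adjusted threshold 0.05). The dose trend used 24 arrays with dose rank and time label, the time trend 21 arrays with log2 days and diet, and the titled comparison added the title token. The fit was tested on simulated data. Correlations used 100000 resamples, two-sided. Named genes were the 8 members, the genes of the lists and the 10 genes most like the members. The members and lists were chosen with earlier results of these data known, and 2 alternatives were chosen after seeing the data (Day 14 labels exchanged, and without the 2 arrays of low Ucp1). Arrays have no read depth, and their number and signal limit the precision. Adgre1 and Aoc1 carry the older symbols Emr1 and Abp1 on the array. Promoters and gene coordinates came from RefSeq GRCm38.p6, with 7 of 8 members in the promoter table and all 8 in the gene table. On either strand of the genome the commonest TATAAA position was 29 or 30 bases before the start, as for sequences read along the gene.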

Additional observations from a re-analysis of the deposited data

Results flagged for a closer look

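Within groups of 4 to 10 arrays with a value (LFC, HF5, HF20 and HF75, and for Tpsb2 also HFC), 33 sets of member values were examined for a lone array, and 2 were found, where chance gives about 1 in 20. Tpsb2 was 1.19 on HF20 Week 18, far above the next HF20 array (-2.64, n = 5). Fcer1a was -6.46 on LFC Week 18, a titled array, below the next LFC array (-4.81, n = 10), and its spot there was not well above background.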

How the results depend on the processing

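No paired analysis was possible because the labels number no replicates beyond the time label, which pairs the diets and is already a block in the fit. With limma, the 0 probes called between HFC and LFC became 3 with quantile normalization, 2 with scan date as a random block, 24 with array weights, 2 without the titled arrays and 0 to 1 when a time label was left out. For HF75 against HFC the 0 became 1 with array weights and 3 without the titled arrays. For the dose trend the 0 became 3 with array weights, and 0 to 7 when a label was left out (7 without Week 15). For the time trend the 0 became 5 with quantile normalization, 5 with probes well above background on at least 20 arrays, 172 with array weights, and 0 to 1 when a label was left out. Of the titled comparison's 17828 probes, 10427 were called with quantile normalization, 28430 with normexp background correction, 11478 with probes well above background on at least 20 arrays, and 10067 (without Week 12) to 20348 when a label was left out. Its 7 members called became 3 with quantile normalization and 2 to 7 when a label was left out. Pairs of members past the threshold went from 17 to 10 with quantile normalization and 7 without the titled arrays.

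Between HFC and LFC, normexp background correction turned Tpsb2 to -0.14, Fcer1a to -0.20 and Ms4a2 to -0.51, and Kit was 0.050 with the Day 14 labels exchanged. Hdc was -0.13 with array weights, -0.11 without arrays over 10% flagged, -0.55 without the titled arrays and -0.054 without the 2 arrays of low Ucp1. When a label was left out, Hdc ranged from -0.43 to 0.66 (lowest without Week 18, below 0 also without Week 12) and Ms4a2 from -0.0024 (without Week 18) to 0.76, and the time slope of Cpa3 from -0.26 to 0.0124 (without Day 1). The causes were not tested. With the methods' t-test on the same values, 1284 probes had an unadjusted p under 0.05 between HFC and LFC, 384 higher and 900 lower, and 0 passed after Benjamini-Hochberg adjustment. Signal over background limits Ms4a2 most.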
